A study of Mus musculus with 6 samples.

Results

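The keratins of the basal layer (*Krt5*, *Krt14* and *Krt15*) and of simple epithelium (*Krt7*, *Krt8*, *Krt18* and *Krt19*) were followed in mammary tumors and normal mammary glands of BK5.ATF3 transgenic mice. These 7 genes were taken by symbol from the 15280 genes of the deposited table, as 3 basal and 4 simple keratins. The rule uses symbols only, but the genes were chosen with earlier results of these data known. RNA-Seq libraries were made from 1 tumor and the adjacent normal gland of each of 3 female mice, so n = 3 for each tissue. The glands are named M11035, M11640 and M9232 and the tumors of the same mice T11035, T11640 and T9232, and values are given in this order. The females had raised 1 litter, most of the transgenic animals developed tumors at 6 to 12 months, and each was killed once its tumor was 1.5 cm long. All 6 tissues carried the transgene, in which the bovine cytokeratin-5 (BK5) promoter drives the transcription factor ATF3 in basal epithelial cells, and no wild-type tissue was compared. The strain was not given in the sources used here, and the adjacent gland came from a tumor-bearing transgenic animal and not from a healthy one.

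Keratins build the intermediate filaments of epithelial cells. Each filament needs a type I and a type II keratin in equal parts, and the usual partners are *Krt14* (type I) with *Krt5* (type II) in basal and myoepithelial cells, and *Krt18* (type I) with *Krt8* (type II) in the luminal cells of the mammary ducts and alveoli. *Krt15* is a further type I keratin of basal cells in stratified epithelia, *Krt19* is a type I keratin of simple epithelia that lacks most of the usual tail, and *Krt7* is a type II keratin of ducts and glands.

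In the mouse genome (mm9), the type I genes *Krt15* (chr11:99993072-99997263), *Krt19* (chr11:100002124-100009979) and *Krt14* (chr11:100064476-100068862) lie on the minus strand of chromosome 11. The type II genes *Krt7* (chr15:101241474-101260744, plus strand), *Krt5* (chr15:101537501-101543322, minus strand) and *Krt8* (chr15:101827142-101834773, minus strand) lie on chromosome 15, and *Krt18* (chr15:101858647-101862457, plus strand) lies beside *Krt8* although it is of type I. The genes have between 6 and 9 exons, none of which overlaps an exon of another annotated gene. No alignment of at least 200 bp between a member and another coding gene reached a mean identity of 95%. The alignments of highest identity were to *Krt6b* for *Krt5* (87.7% over 1165 bp) and to *Krt17* for *Krt14* (89.4% over 961 bp). A shorter stretch of higher identity inside such an alignment would not have been seen. *Krt8* had 1 further copy in the genome, aligned over 1734 bp, while its transcript is 1805 bp long. Fragments from most of *Krt8* may therefore have had more than 1 place to map, and the effect on its level was not tested. For *Krt5* there were 3 short copies of at most 239 bp, against a transcript of 2190 bp. Whether these lie in other keratin genes was not tested, nor was their effect on the count of *Krt5*.

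The 100 bases before the annotated starts of both filament pairs are shown because the members of a pair are used together. Capitals mark a TATAA or an ATAAA on the strand of the gene, the coordinates are those of mm9, and the sequences run 5′ to 3′ toward the start. They are, in order, chr15:101543323-101543422 (minus strand), chr11:100068863-100068962 (minus strand), chr15:101834774-101834873 (minus strand) and chr15:101858547-101858646 (plus strand).
Krt5: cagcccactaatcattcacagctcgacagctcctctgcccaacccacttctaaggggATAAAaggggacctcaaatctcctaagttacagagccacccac
Krt14: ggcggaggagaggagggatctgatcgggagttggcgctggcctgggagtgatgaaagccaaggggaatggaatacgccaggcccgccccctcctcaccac
Krt8: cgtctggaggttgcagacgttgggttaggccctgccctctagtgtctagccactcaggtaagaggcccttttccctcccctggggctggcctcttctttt
Krt18: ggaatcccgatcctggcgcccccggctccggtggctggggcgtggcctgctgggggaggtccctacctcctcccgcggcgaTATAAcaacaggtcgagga

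Of the 7 genes, *Krt18* and *Krt15* had TATAA in this window, at positions -19 and -48 from the start, as did 4.84% of 14363 genes of the table. *Krt5* and *Krt7* had ATAAA, at positions -43 and -6, as did 6.76% of genes. Starts were those of the transcript with the longest coding sequence. For *Krt7* (chr15:101242833), *Krt19* (chr11:100007434) and *Krt15* (chr11:99997242) this start lay inside the gene span given above. In the 250 bases before the start and on either strand, the AP-1 motif TGANTCA was found in *Krt14* and *Krt15* and in 5.14% of genes. The ATF/CRE core TGACGT was found in none of the 7 and in 8.97% of genes, the GC box GGGNGGG in 6 of 7 (not in *Krt18*) and in 60.5% of genes, and the AP-2 motif GCCNNNGGC in *Krt15*, *Krt7* and *Krt18* and in 19.1% of genes. These matches describe the letters of the windows and not the binding of a factor.

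The libraries held between 4750989 and 7806908 fragments on genes. Values are in CPM, the fragments on a gene scaled by the size of the library, here edgeR's effective library size, and 3 fragments, taken as the floor of detection, were worth 0.393 to 0.610 CPM. Across genes, r of the log2 values was 0.949 to 0.980 within a tissue and 0.768 to 0.826 between tissues. Gland M9232 stood apart by its milk protein transcripts, whose 10 genes summed to 54657 CPM against 3702 and 5813 CPM in glands M11035 and M11640. *Atf3* was at 4.47, 8.09 and 22.6 CPM in the glands and at 13.4, 18.3 and 19.3 CPM in the tumors, and was not called (log2 fold change 0.80, adjusted p = 0.223, limma). Whether these counts include transcripts of the transgene was not tested.

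All 7 keratins were higher in the tumors, the basal keratins by 5.48 to 6.23 on the log2 scale and the simple keratins by 1.19 to 2.87. Each was a differentially expressed gene (DEG), called where the adjusted p was 0.05 or less and the fold change (FC) 2 or more, and 14.5% of all 15280 genes were called as higher in tumor. In each of the 7 the 3 tumors all lay above the 3 glands, a separation in this direction that 27.6% of all genes showed. Tests were made with limma on log2(CPM + 0.5), with Benjamini-Hochberg adjustment across the whole table. The log2 fold changes below are on that scale, which understates the change of genes near 0. In such bulk tissue, a change in the number of cells of a type and a change in RNA per cell cannot be told apart.

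*Krt5*, the type II keratin of basal cells, was at 9.96, 27.6 and 36.1 CPM in glands M11035, M11640 and M9232 and at 913, 989 and 1055 CPM in tumors T11035, T11640 and T9232. The glands differed by more than 3 times among themselves while the tumors lay close together, and the groups did not come near each other. The mean rose from 24.6 ± 13.3 to 986 ± 71.1 CPM (SD, n = 3), a log2 fold change of 5.48 with a standard error (SE) of 0.40 and a 95% interval of 4.57 to 6.38 (adjusted p = 2.02e-05, limma). The promoter of the bovine form of this gene drives the transgene.

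Its filament partner *Krt14* was at 6.10, 8.59 and 19.8 CPM in the glands and at 440, 686 and 629 CPM in the tumors. The lowest tumor was again T11035 and the highest gland again M9232. The mean rose from 11.5 ± 7.32 to 585 ± 129 CPM (SD, n = 3), by 5.75 on the log2 scale (SE 0.38, 95% interval 4.89 to 6.61, adjusted p = 1.27e-05, limma).

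*Krt15* was close to undetected in the normal gland, with 1, 0 and 15 fragments in the 3 glands against 560, 561 and 325 in the tumors. In CPM it was at 0.203, 0 and 2.05 in the glands and at 104, 73.5 and 48.7 in the tumors. Glands M11035 and M11640 were under the floor, and only gland M9232 held enough fragments for a level. The log2 fold change was 6.23 (SE 0.57, 95% interval 4.93 to 7.53, adjusted p = 6.53e-05, limma), between means of 0.752 ± 1.13 and 75.5 ± 27.8 CPM (SD, n = 3), and it moved with the pseudocount, from 5.57 with 1 to 7.48 with 0.1. The order among the tumors was the reverse of that of *Krt5*, with T11035 highest and T9232 lowest.

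**Figure D1:**
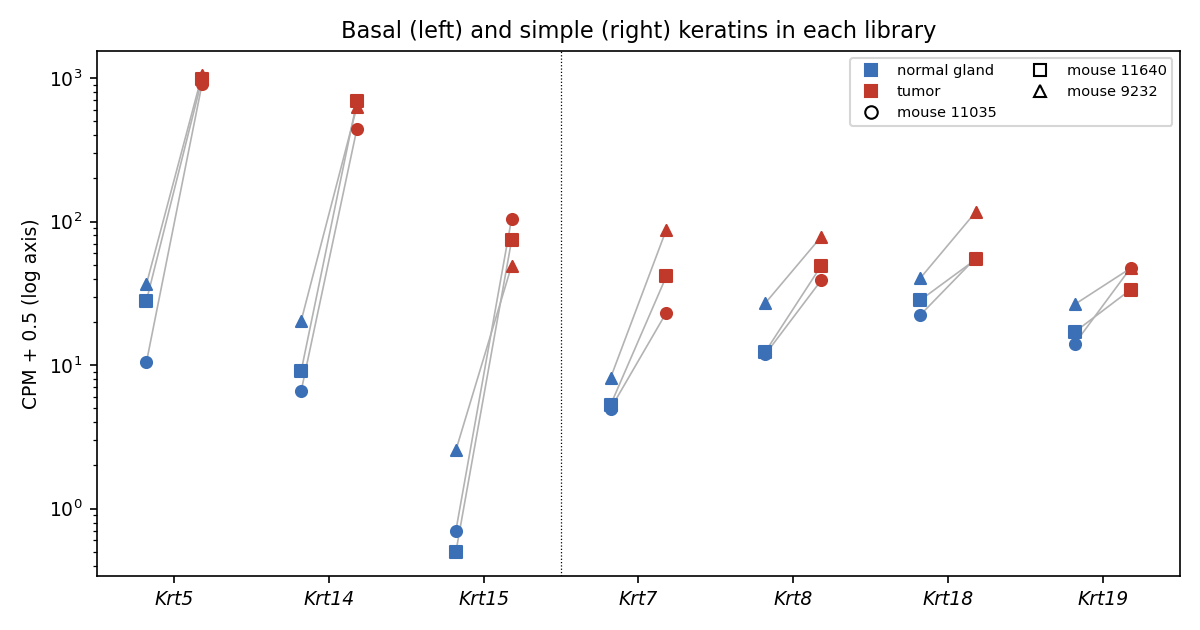
CPM + 0.5 of each keratin on a log axis, with the basal keratins left and the simple keratins right of the dotted line. Blue points are normal glands and red points tumors, the shape gives the mouse and a grey line joins the tissues of a mouse. All tumors lie above all glands for each gene, and the basal keratins rise further, *Krt5* from 9.96 to 36.1 CPM in the glands to 913 to 1055 CPM in the tumors.

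Among the simple keratins, *Krt7*, which is found in ducts and glands, changed most. It was at 4.47, 4.79 and 7.66 CPM in the glands and at 22.7, 41.0 and 87.4 CPM in the tumors. The tumors differed nearly as much among themselves as the lowest tumor differed from the glands. The log2 fold change was 2.87 (SE 0.44, 95% interval 1.86 to 3.88, adjusted p = 0.00112, limma), from a mean of 5.64 ± 1.76 to 50.4 ± 33.3 CPM (SD, n = 3).

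*Krt8*, the type II keratin of luminal cells, was at 11.4, 11.9 and 26.5 CPM in the glands and at 38.3, 48.5 and 77.6 CPM in the tumors. Gland M9232 held more than 2 times the level of the other glands and tumor T9232 the highest level of the tumors, so the change within each mouse was even, at 1.71, 1.98 and 1.53 on the log2 scale. The mean rose from 16.6 ± 8.61 to 54.8 ± 20.4 CPM (SD, n = 3), by 1.74 (SE 0.36, 95% interval 0.91 to 2.57, adjusted p = 0.00539, limma).

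*Krt18*, the partner of *Krt8*, was at 21.8, 27.7 and 39.7 CPM in the glands and at 55.3, 54.0 and 116 CPM in the tumors. Tumor T9232 stood well above the other tumors. The log2 fold change was 1.27 (SE 0.33, 95% interval 0.52 to 2.02, adjusted p = 0.0146, limma), from 29.7 ± 9.12 to 75.2 ± 35.6 CPM (SD, n = 3), and without tumor T9232 it was 0.91 and no longer reached an FC of 2.

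*Krt19* was at 13.6, 16.5 and 26.0 CPM in the glands and at 46.9, 33.0 and 46.8 CPM in the tumors. The highest gland and the lowest tumor lay closer in ratio than for any other of the 7 genes. It rose by 1.19 on the log2 scale (SE 0.26, 95% interval 0.59 to 1.79, adjusted p = 0.00711, limma), from 18.7 ± 6.47 to 42.2 ± 7.97 CPM (SD, n = 3), and without gland M11035 the change was 0.99, just under an FC of 2.

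**Figure D2:**
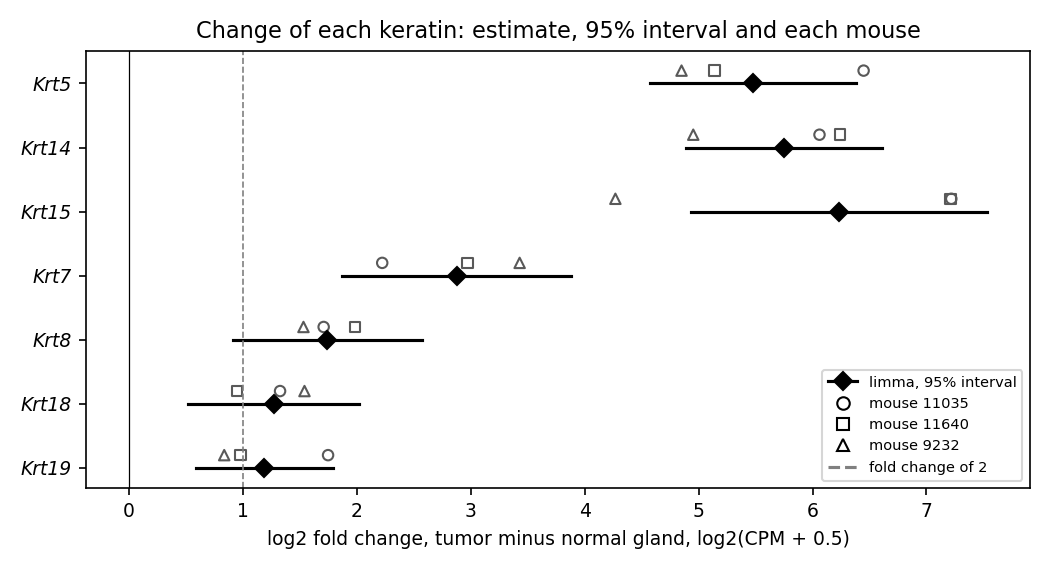
Log2 fold change of each keratin, tumor minus normal gland, on log2(CPM + 0.5). Diamonds with bars are the limma estimate and its 95% interval, open symbols are the difference within each mouse, and the dashed line marks an FC of 2. The intervals of *Krt5*, *Krt14* and *Krt15* begin at 4.57 or above and those of the 4 simple keratins end at 3.88 or below.

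Ratios of the CPM of 2 keratins within a library do not depend on how the library was scaled. Of such ratios, 8 were compared with exact permutation tests, where 3 against 3 can give no p below 0.1. The tests used log2 ratios of CPM + 0.5, and the added 0.5 matters for *Krt15*, which was near 0 in the glands. The ratio of *Krt5* to *Krt8*, the basal and the luminal type II keratin, was 0.875, 2.32 and 1.36 in the glands and 23.8, 20.4 and 13.6 in the tumors. The ratio of *Krt14* to *Krt18*, the basal and the luminal type I keratin, was 0.280, 0.310 and 0.5 in the glands and 7.96, 12.7 and 5.41 in the tumors. In the glands the basal and the luminal keratin were thus within a few times of each other, and in every tumor the basal one prevailed. On the log2 scale these ratios were higher in tumor by 3.74 and 4.48, with no overlap (two-sided exact p = 0.1 each, the smallest possible, 0.2 after adjustment over the 8 ratios).

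Within the filament pairs the ratios moved little. The log2 ratio of *Krt5* to *Krt14* averaged 1.05 ± 0.51 in the glands and 0.78 ± 0.26 in the tumors (SD, n = 3), a difference of -0.27 (two-sided exact permutation p = 0.6). That of *Krt8* to *Krt18* averaged -0.89 ± 0.31 and -0.42 ± 0.23 (SD, n = 3), a difference of 0.47 (two-sided exact permutation p = 0.2). Both pairs of groups overlapped, which with 3 libraries a tissue does not show that the ratios were equal. *Krt15* against *Krt14* (0.48, p = 0.5) and *Krt19* against *Krt18* (-0.08, p = 0.8) overlapped as well in the same exact tests. *Krt15* had 1 and 0 fragments in glands M11035 and M11640, so its ratio moved with the pseudocount.

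*Krt7* was the simple keratin whose ratio to the others shifted. Its ratio to *Krt19* was 0.328, 0.290 and 0.295 in the glands and 0.484, 1.24 and 1.87 in the tumors. The glands were nearly alike and the tumors spread over almost 4 times, all above the glands, with a log2 difference of 1.69 (two-sided exact p = 0.1, 0.2 adjusted). Its ratio to *Krt8* also separated the tissues, with a log2 difference of 1.13 (two-sided exact p = 0.1, 0.2 adjusted).

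**Figure D3:**
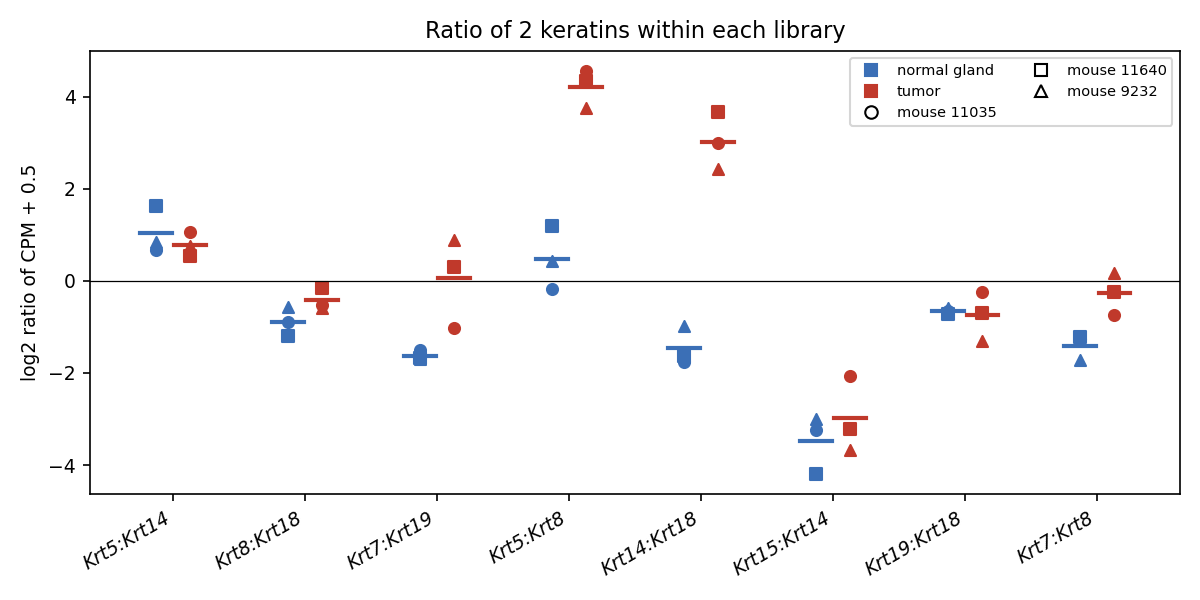
Log2 ratio of one keratin to another within each library, from CPM + 0.5, with glands in blue, tumors in red, the mouse by shape and a bar at each mean. Basal against luminal keratins (*Krt5*:*Krt8*, *Krt14*:*Krt18*) separate the tissues by 3.74 and 4.48, while the filament pairs *Krt5*:*Krt14* and *Krt8*:*Krt18* overlap.

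To compare levels between genes, CPM were divided by the length of the transcript in kb. In the normal glands *Krt18* was highest, at 21.2 ± 6.51 CPM per kb (SD, n = 3), followed by *Krt19* (11.9), *Krt5* (11.2), *Krt8* (9.20), *Krt14* (6.78), *Krt7* (1.38) and *Krt15* (0.442). Of these neighbours only *Krt14* and *Krt7* did not overlap in their ranges over the 3 glands. Within each of the 3 glands *Krt18* ranked 1 and *Krt14* ranked 5, while *Krt19*, *Krt5* and *Krt8* changed places between glands. In the tumors *Krt5* was highest, at 450 ± 32.5 CPM per kb, then *Krt14* at 345 ± 75.8, *Krt18* at 53.7 ± 25.4, *Krt15* at 44.4 ± 16.4, *Krt8* at 30.4 ± 11.3, *Krt19* at 26.8 ± 5.05 and *Krt7* at 12.3 ± 8.14 (SD, n = 3). *Krt5* lay above *Krt14* and *Krt14* above *Krt18* without overlap, and the neighbours below them overlapped. Per kb of coding sequence, which leaves out the long untranslated part of the annotated *Krt7* transcript, *Krt7* (36.7) and *Krt19* (34.8) changed places in the tumors.

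Summed per kb, the 3 basal keratins made up 20.7%, 31.7% and 32.4% of the RNA of the 7 genes in the glands and 88.5%, 90.3% and 83.3% in the tumors. The simple keratins thus gave the larger part in each gland and the smaller part in each tumor, although their own sum in CPM was higher in the tumors (163, 177 and 328) than in the glands (51.2, 60.9 and 99.9). Type II over type I members, per kb, gave 0.428, 0.576 and 0.573 in the glands and 1.14, 0.964 and 1.07 in the tumors. By this measure the RNA of both types was close to equal in the tumors. Type I was in excess in the glands, where *Krt18* and *Krt19* led. The type II sum divides *Krt7* by its long transcript, which gave 1.38 in the glands against 4.11 per kb of coding sequence. It also holds *Krt8*, whose genomic copy may have affected its count.

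The glands varied together. Gland M9232 was highest in all 7 keratins and also in the epithelial markers *Epcam* (105, 122 and 227 CPM in glands M11035, M11640 and M9232) and *Cdh1* (54.1, 63.6 and 115 CPM), and gland M11035 was lowest in all of these except *Krt15*. *Epcam* encodes a surface adhesion protein and *Cdh1* the E-cadherin of epithelial junctions. Dividing by *Epcam* within the library narrowed the SD of the log2 level over the glands from 0.67 to 0.12 for *Krt8*, from 0.47 to 0.13 for *Krt19*, from 0.43 to 0.19 for *Krt18* and from 0.84 to 0.26 for *Krt14*. *Krt5* kept a wider spread, from 0.95 to 0.61.

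Among the tumors the spread depended on the gene. The coefficient of variation over 3 tumors was 7.21% for *Krt5*, 18.9% for *Krt19* and 22.0% for *Krt14*, and 36.8%, 37.2%, 47.4% and 66.2% for *Krt15*, *Krt8*, *Krt18* and *Krt7*. Tumor T9232 was the highest for *Krt5*, *Krt7*, *Krt8* and *Krt18* and the lowest for *Krt15*. *Epcam* in the tumors varied by 7.30% only, so dividing by it left the SD of *Krt7* at 0.91 and that of *Krt18* at 0.62 on the log2 scale.

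*Epcam* itself was at 194, 225 and 213 CPM in the tumors, with a log2 fold change of 0.56 that was not called (adjusted p = 0.124, limma), and gland M9232 lay above every tumor. Relative to *Epcam*, every one of the 7 keratins was higher in all tumors than in all glands. The log2 differences were 4.92 for *Krt5*, 5.20 for *Krt14* and 5.68 for *Krt15*, and 2.32, 1.19, 0.72 and 0.63 for *Krt7*, *Krt8*, *Krt18* and *Krt19* (two-sided exact permutation p = 0.1 each, the smallest possible, 0.108 adjusted over the ratios to both markers).

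*Cdh1* rose with the keratins, to 313, 367 and 442 CPM in the tumors (log2 fold change 2.33, adjusted p = 2.49e-04, limma), and as the reference it parted the basal from the simple keratins. Relative to *Cdh1*, *Krt5*, *Krt14* and *Krt15* were higher in all tumors, by 3.15, 3.42 and 3.90 on the log2 scale. *Krt7* overlapped between tissues (0.55, exact p = 0.3). *Krt8*, *Krt18* and *Krt19* were lower in all tumors than in all glands, by -0.59, -1.06 and -1.14 (two-sided exact permutation p = 0.1, 0.108 adjusted). The direction of these 3 simple keratins relative to epithelial RNA therefore depended on which epithelial gene was the reference.

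**Figure D4:**
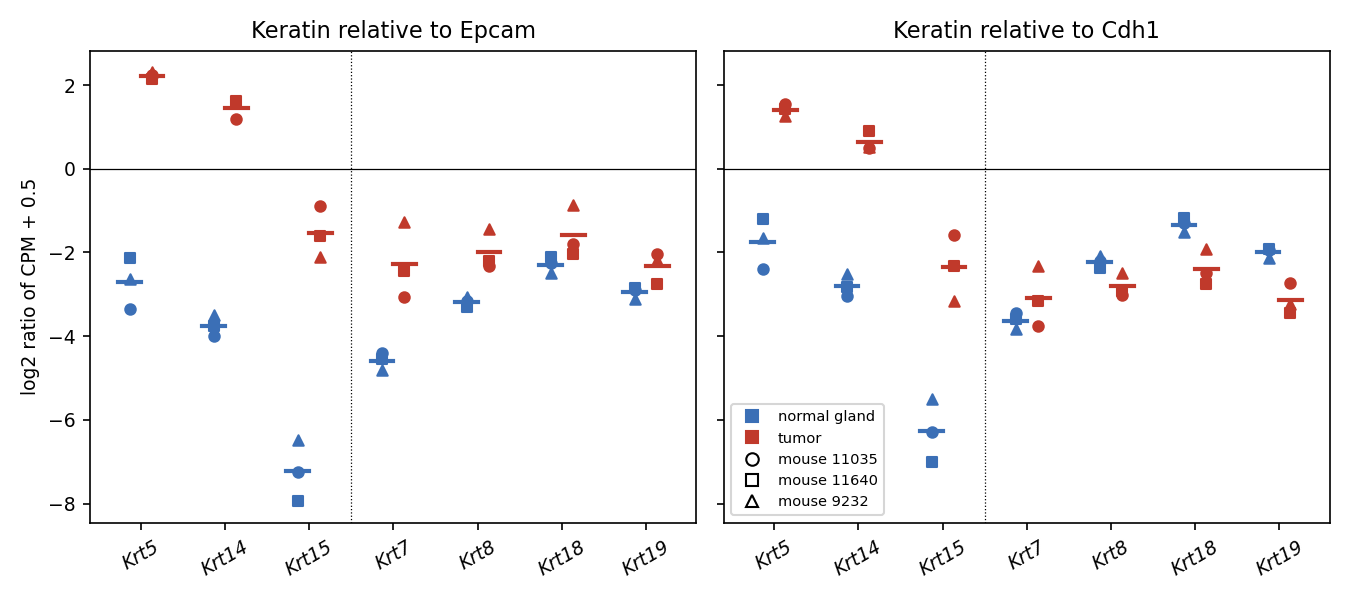
Log2 ratio of each keratin to *Epcam* (left) and to *Cdh1* (right) within each library, from CPM + 0.5, with glands in blue, tumors in red, the mouse by shape and a bar at each mean. The basal keratins lie higher in tumor in both panels, while *Krt8*, *Krt18* and *Krt19* lie higher relative to *Epcam* (1.19, 0.72 and 0.63) and lower relative to *Cdh1* (-0.59, -1.06 and -1.14).

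The table held 37 other keratin genes, of which 36 were called as higher in tumor and 1 as lower, with a median log2 fold change of 3.41 against -0.00 over all genes. Over all genes 14.5% were called as higher and 13.7% as lower, and counts of the lists below are read against these shares. With the mouse as a block, 35 of the 37 were called as higher, and over all 15 alternatives 31 to 36 were. In 27 of the 37 all 3 glands were at or under the floor, so their fitted changes depend on the pseudocount, and a keratin listed with few fragments in glands could hardly have moved down. The largest rises were those of *Krt6b* (9.52), *Krt6a* (8.78) and *Krt1* (8.64). *Krt6a* and *Krt6b*, keratins of hair follicles and of wounded epidermis, are similar genes, and the effect of fragments that fit both was not tested. *Krt1* is the type II keratin of the differentiating layers of the epidermis. The least rises were those of *Krt13* (1.36), *Krt36* (1.73) and *Krt35* (1.75), at tumor means of 0.854, 3.11 and 1.46 CPM. *Krt222*, a keratin-like gene, was the exception, falling from 13.8 ± 3.92 to 3.63 ± 0.761 CPM (SD, n = 3, log2 fold change -1.77, adjusted p = 0.00146, limma).

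Because of these other keratins, the 7 members made up 70.3%, 79.7% and 84.2% of all keratin CPM in the glands and 33.5%, 27.2% and 33.3% in the tumors. All 44 keratin genes together took 0.00993% to 0.0186% of fragments in the glands and 0.508% to 0.691% in the tumors. Only 13 to 15 keratins were above the floor in a gland, and 41 to 44 in a tumor. *Krt10*, the epidermal partner of *Krt1*, reached 997 ± 321 CPM (SD, n = 3) in the tumors from 5.10 ± 1.62 CPM in the glands, close to the 986 CPM of *Krt5*.

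Neighbours within the clusters changed by different amounts. *Krt15* and *Krt19* are neighbours 4860 bp apart and changed by 6.23 and 1.19 on the log2 scale. *Krt13*, 10191 bp from *Krt15* on its other side, was barely detected in the tumors. *Krt8* and *Krt18*, of different types but 23873 bp apart, changed by 1.74 and 1.27. *Krt6a*, 12762 bp from *Krt5*, changed by 8.78 against 5.48.

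**Figure D5:**
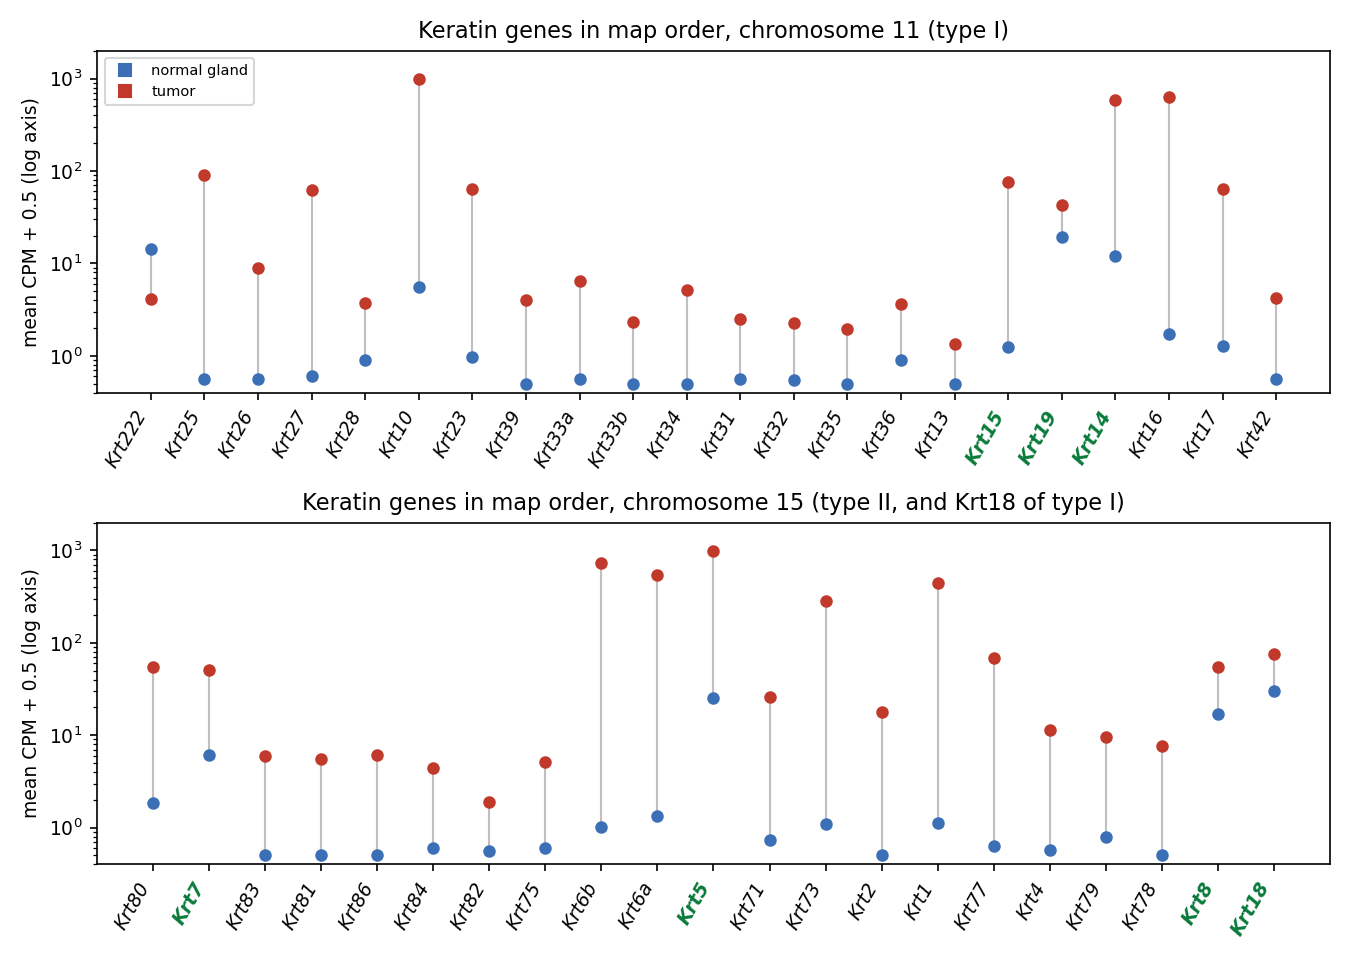
Mean CPM + 0.5 of keratin genes on a log axis, in the order of their map positions on chromosome 11 (top) and chromosome 15 (bottom), with glands in blue, tumors in red and the 7 basal and simple keratins in green letters. *Krt15* and *Krt19* stand side by side with changes of 6.23 and 1.19, and *Krt222* is the gene that falls.

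Keratin filaments are anchored by plakins and armadillo proteins at desmosomes and hemidesmosomes. Of 12 such linker genes and keratin-binding genes 9 were called as higher in tumor and 0 as lower, with a median log2 fold change of 2.63. *Dsp*, the desmoplakin that ties keratins to desmosomes, rose from 36.0 ± 12.3 to 1758 ± 327 CPM (SD, n = 3, log2 fold change 5.62, adjusted p = 1.90e-06, limma), a change close to that of *Krt5* and *Krt14*. The desmosomal genes *Pkp1* (5.19), *Ppl* (3.95), *Evpl* (3.63), *Pkp3* (2.73) and *Jup* (2.53) rose too, as did *Plec* (1.39), which links keratins to hemidesmosomes, *Pof1b* (5.25) and *Fam83h* (1.85). *Dst*, in its epithelial isoform the hemidesmosomal linker of the *Krt5* and *Krt14* filaments, was lower in all tumors than in all glands (-0.44, adjusted p = 0.0451, limma). This change was under an FC of 2 and was not called. *Pkp2* (-0.47) and *Tchp* (-0.29) overlapped between tissues and were not called either. The isoforms of *Dst* were counted as 1 gene.

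Filaments of other kinds did not move together. Of 8 other intermediate filament genes, 2 were called as higher (*Lmna*, 1.89, which encodes lamins A and C, and *Nes*, 1.08, nestin) and 2 as lower (*Des*, -2.92, the desmin of muscle, and *Synm*, -1.95). The higher calls were 1 without gland M9232 and 3 without gland M11035, and without tumor T11035 or T11640 the lower calls were 1. *Vim*, the vimentin of mesenchymal cells, was at 329, 402 and 404 CPM in the glands and 519, 607 and 682 CPM in the tumors, and its log2 fold change of 0.67 was under an FC of 2 (adjusted p = 0.00864, limma).

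Of 23 genes for transcription factors and signals known to act on keratin genes, 16 were called as higher in tumor and 2 as lower, with a median log2 fold change of 1.57. *Trp63*, the p63 of basal cells that acts on *Krt5* and *Krt14*, was at 21.6, 46.6 and 37.2 CPM in the glands and at 467, 363 and 278 CPM in the tumors. It rose by 3.41 on the log2 scale (SE 0.29, adjusted p = 4.73e-05, limma), and its order among the tumors was that of *Krt15* and not that of *Krt5*. *Grhl3*, a factor of epidermal differentiation, rose most (5.97), and *Elf5*, a factor of luminal and alveolar cells, fell most (-2.59). *Sp1*, the most abundant of the list, was not called (0.09).

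The keratins did not stand for all genes of their cell types. Of 20 genes of mammary basal and myoepithelial cells 12 were called as higher and 4 as lower, with a median log2 fold change of 1.40. *Cdh3*, the P-cadherin of basal cells, rose most (3.51), while *Oxtr*, the oxytocin receptor of contractile myoepithelial cells, fell most (-4.83). *Acta2*, smooth muscle actin, was at 34.6, 99.6 and 171 CPM in the glands and at 99.7, 137 and 121 CPM in the tumors, with overlap and no call (0.49, adjusted p = 0.446, limma). *Krt5*, *Krt14* and *Krt15* thus rose beside a contractile marker that did not pass the test.

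Of 19 genes of mammary luminal cells 6 were called as higher and 7 as lower, with a median of -0.32, although all 4 simple keratins rose. The median was -0.06 without gland M9232. *Tbx3*, a transcription factor, rose most (3.28) and *Prlr*, the prolactin receptor, fell most (-3.11). *Esr1*, the estrogen receptor of hormone-sensing luminal cells, was at 20.3, 30.7 and 25.6 CPM in the glands and at 7.82, 4.98 and 3.90 CPM in the tumors (log2 fold change -2.13, adjusted p = 4.84e-04, limma). Of 20 genes expressed by epithelial cells in general, 12 were called as higher and 0 as lower, with a median of 1.39, and the *Cd24a* transcript was the most abundant.

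Markers of other cells moved with the tissue. Of 20 adipocyte genes 20 were called as lower in tumor, with sums of 9763 to 18633 CPM in the glands and 405 to 594 CPM in the tumors. All 10 B cell genes (350 to 868 CPM in glands, 21.2 to 23.2 CPM in tumors) and all 11 T cell genes (224 to 575 CPM, 33.7 to 54.1 CPM) were also called as lower. Of 10 milk protein genes 8 were called as lower, with 3702 to 54657 CPM in glands, 130 to 778 CPM in tumors and *Lalba* at 0 in all tumors. Skeletal muscle genes, 4 of 12 called as lower, summed to 4813, 1782 and 7.25 CPM in glands M11035, M11640 and M9232 and to 9.70 to 23.6 CPM in the tumors. The muscle count rested on single libraries, with 12 called as lower without gland M9232, 1 without gland M11035 and 0 without any one of the other libraries. The 3 glands were thus unlike one another in muscle and milk transcripts.

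Other lists held more higher calls or few calls. All 21 squamous and suprabasal genes were called as higher, 23.8 to 30.2 CPM in glands and 4353 to 7468 CPM in tumors, with *Krt13*, *Lor* and *Sprr3* at 0 in all glands, and 8 of the 21 are keratins counted above. With the mouse as a block 20 of the 21 were called. Of 12 fibroblast genes 7 were called as higher, with sums of 1446 to 4815 CPM in glands and 13868 to 15973 CPM in tumors. Of 11 macrophage genes 2 were called as higher and 1 as lower, close to the shares of all genes, and without gland M9232 these counts were 4 and 0. The lower call was also lost without gland M11640 and without tumor T11035 or T11640. Of 12 endothelial genes 3 were called as lower, and 1 without gland M11640 or without tumor T11035. The part of these cell types in the keratin changes was not tested.

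The genes whose levels were most like those of each keratin were sought by Pearson's r of log2(CPM + 0.5) over the 6 libraries, among the 9338 genes whose mean reached 10 CPM. The first gene was *Tmem119* for *Krt5*, *Nebl* for *Krt14*, *Lig3* for *Krt15*, *Zfp568* for *Krt7*, *Glt25d1* for *Krt8*, *Lgals9* for *Krt18* and *Scarb2* for *Krt19*, with r of 0.992 or more. The hemidesmosomal collagen gene *Col17a1* was the third for *Krt5* (r = 0.998), and *Jun*, a component of AP-1, was the third for *Krt8* (r = 0.994). Among the keratins themselves r was highest between *Krt5* and *Krt14* (0.993) and lowest between *Krt15* and *Krt18* (0.817). The 6 points were 3 glands and 3 tumors of the same 3 mice, so any gene that differs between the tissues correlates with the keratins, and r is given as a description.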

How the data were processed

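Total RNA of 6 tissues was extracted with Trizol, and libraries were prepared with the NuGEN Ovation RNA-Seq System V2. According to the study's methods and processing notes, the authors used CASAVA 1.8.2, mapped read pairs to mm9 with TopHat2 2.0.3, counted fragments on RefSeq genes with HTSeq 0.5.3p9 and removed genes with fewer than 10 fragments. The authors deposited a normalized signal, the CPM on the effective library size of edgeR 3.6.1. Because the columns sum to between 952151 and 1041166 and are not equal, the unit was taken as a signal and tested on a log scale as planned for CPM. Whole fragments could be recovered for 100% of values in each library (tolerance 0.01). Floors cover counting error only, and p-values measure the spread over 3 mice.

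Genes were tested with limma 3.58.1 (R 4.3.3) on log2(CPM + 0.5), two-sided, with a mean-variance trend and no mouse term, and adjusted over 15280 genes. Ratios were tested with exact permutation tests (scipy 1.17.1), which did not use the pairing by mouse. The 7 keratins and the gene lists, compiled by hand, were chosen with earlier results of these data known. Named genes are the members, further keratins at the ends of the order, the highest, lowest and most abundant genes of each list, 7 markers, and the 3 genes most like each member. All linker genes, the called filament genes and Krt10 were named in addition, some after their values were seen. Annotation was GENCODE vM1 on mm9, searched with BLAST 2.17.0. Replicates were separate animals, and no libraries of a tissue were copies (lowest chi-square per degree of freedom 13.0).

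Gland and tumor were taken from 1 animal each time, and the mouse numbers therefore pair them. Over 14712 genes the deviations of gland and tumor from their group means correlated with r = 0.107, 0.151 and 0.0168 for the pairs with tumors T11035, T11640 and T9232. The study's methods name no mouse term, so the blocked fit was run as an alternative. Further alternatives were pseudocounts of 0.1 and 1, a minimum mean of 1 CPM, DESeq2 size factors, plain totals, edgeR 4.0.16 quasi-likelihood and DESeq2 1.42.0 tests on recovered fragments, limma without trend, and leaving out each library. The coding length as an alternative was added after the data had been seen.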

Additional observations from a re-analysis of the deposited data

How the results depend on the processing

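All 7 keratins kept their direction under the 15 alternatives, and 5 of them were called under each. Over all alternatives the log2 fold change ran from 4.94 to 5.84 for Krt5, 5.40 to 6.21 for Krt14, 5.57 to 7.48 for Krt15, 2.37 to 3.33 for Krt7, 1.46 to 2.13 for Krt8, 0.91 to 1.50 for Krt18 and 0.99 to 1.44 for Krt19. The calls that were lost, Krt18 without tumor T9232 (0.91, adjusted p = 0.0376, limma) and Krt19 without gland M11035 (0.99, adjusted p = 0.0191, limma), were lost to the fold threshold. In those fits 6 of the 7 keratins were called.

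With the mouse as a replicate block, all 7 keratins were called, with adjusted p from 2.27e-05 to 0.00600 (limma), and the block changed no call of these 7. Of the lists, the block lowered the higher calls of the squamous genes from 21 to 20 and of the other keratins from 36 to 35, and raised the lower calls of the muscle genes from 4 to 6. Genes called over the whole table ranged from 1952 to 2265 higher and from 1822 to 2224 lower over the alternatives, against 2212 and 2097.

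Among the keratin ratios, 3 that overlapped between tissues turned their direction. Krt5 to Krt14 was -0.27 and ran from -0.46 without gland M11035 to 0.0186 without gland M11640. Krt15 to Krt14 was 0.48 and ran from -0.114 with a pseudocount of 1 to 1.67 with a pseudocount of 0.1. Krt19 to Krt18 was -0.08 and ran from -0.34 without tumor T11035 to 0.195 without tumor T9232. The cause was not tested. Counts of skeletal muscle genes called as lower ran from 0 to 12, and the median log2 fold change of the other keratins from 2.61 with a pseudocount of 1 to 6.87 with DESeq2. In the glands, Krt15 and most other keratins had few fragments at depths like those of the tumors, so their fitted changes depend on the pseudocount.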
